A study of Homo sapiens with 6 samples.

Results

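The Fos and Jun subunits of the transcription factor AP-1 and 4 further genes that cells switch on early after a stimulus were followed in HaCaT cells, an immortalised line of human keratinocytes. The 10 genes, FOS, FOSL1, FOSL2, JUN, JUNB, JUND, EGR1, IER2, IER3 and MYC, were chosen by name among 27988 genes named in the assemblies, and each was found once. RNA sequencing covered 3 libraries from cells given 100 pmol of an siRNA against PSENEN and 3 from cells given a mismatch siRNA, both delivered with a lipid reagent. The PSENEN protein, PEN-2, belongs to γ-secretase, an enzyme complex that cuts Notch and other proteins within the membrane. All cells grew in high glucose medium with 10% fetal calf serum, without an acute stimulus named in the labels. RNA was taken at 48 and 72 h, and the labels tie the libraries to neither time and give no dose for the mismatch siRNA. The study set out to follow PSENEN knockdown into the behaviour and signalling of keratinocytes.

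AP-1 is a dimer of a Jun protein with a Fos protein or a second Jun protein, and it binds short palindromic elements in promoters and enhancers. Growth factors, serum, wounding and ultraviolet light raise FOS, JUN, EGR1 and IER2 within minutes through MAP kinases and serum response factor, and their messengers decay quickly. In the epidermis, AP-1 takes part in the expression of involucrin, loricrin, keratins, proteases and their inhibitors, and FOSL1 is known as a subunit of activated and migrating keratinocytes. MYC, which dimerises with MAX, drives growth and ribosome production.

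Promoter sequence was read for 7 of the 10 genes from RefSeq (GRCh38.p14, 250 bases before to 50 after the start), FOSL1, IER3 and MYC having no entry. The elements are printed because AP-1 and immediate early promoters are recognised by them. Capitals mark the element, and each was searched on both strands. EGR1 held 2 CArG boxes, the element of serum response factor, at 105 and 83 bases before the start, and 1.29% of all 35116 promoters in the table held at least 1. JUN held TGACATCA, a variant of the AP-1 and CRE elements (2.61% of promoters), FOSL2 held an AP-1 element TGANTCA just after its start (7.71%), and JUND a CRE, TGACGTCA (1.85%). FOS, JUNB and IER2 held none of these elements in this window, and sequence further upstream was not read. TATAAA (2 of the 7 genes, 11.5% of promoters) and CCAAT (3 of the 7, 34.6%) were also searched and are not printed.
EGR1, chr5:138465364-138465393, plus strand: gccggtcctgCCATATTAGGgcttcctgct
EGR1, chr5:138465386-138465415, plus strand: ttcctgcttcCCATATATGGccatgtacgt
JUN, chr1:58784096-58784125, minus strand: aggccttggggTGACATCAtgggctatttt
FOSL2, chr2:28392851-28392879, plus strand: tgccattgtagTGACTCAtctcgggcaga
JUND, chr19:18281804-18281833, minus strand: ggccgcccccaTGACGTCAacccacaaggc
A match is a description of the letters and was not tested as a binding site in these cells.

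The 3′ UTRs of quickly decaying messengers often hold AU-rich elements, which bind proteins that shorten the life of the RNA. The word TATTTAT, a core of such elements, occurred in the 3′ UTR of 6 of the 10 genes, against 30.2% of 10576 tested protein-coding genes with a 3′ UTR in GENCODE 29. Within the last 300 bases, a length shared by all 10 and by 8494 of these genes, 4 of the 10 (FOS, JUN, FOSL1 and JUND) held it, against 11.4%. IER3 held it 4 times and FOSL2 and FOS 2 times each, and 1 site per gene follows with the word in capitals.
FOS, chr14:75282062-75282086, plus strand: tttttaattTATTTATtaagatgga
IER3, chr6:30743603-30743627, minus strand: tgtacgtaaTATTTATtttaactta
JUN, chr1:58780821-58780845, minus strand: gcttatgaaTATTTATaacagcatt
FOSL1, chr11:65892274-65892298, minus strand: ggcagctgcTATTTATtttcctaaa
FOSL2, chr2:28416357-28416381, plus strand: ttattttatTATTTATtttaaatgt
JUND, chr19:18280000-18280024, minus strand: attctgcccTATTTATgtttctact
MYC, JUNB and EGR1 lacked TATTTAT but held the shorter AU-rich word ATTTA 4, 2 and 1 times, and IER2 held neither.

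The deposited values are TPM, an abundance scaled to a like total per library. They correct for transcript length and library size and so allow levels of different genes to be set side by side. A gene's level is the sum over its reference transcripts, and a change is the log2 difference of TPM + 1, negative where the PSENEN siRNA group is lower. Adding 1 shrinks the change of genes at low levels. Reference transcripts held 66.4% to 67.5% of TPM in PSENEN siRNA libraries and 67.1% to 68.6% in mismatch siRNA libraries. The rest, on unnamed assembled transcripts, is left out of these levels. Those that share an intron with an annotated gene held 5.09% to 5.44% against 5.61% to 6.33%, without overlap between groups. Values of 3 libraries are given in the order of libraries 1, 2 and 3. PSENEN itself was at 1.75, 2.08 and 1.496 TPM with the PSENEN siRNA and at 6.58, 8.85 and 6.55 TPM with the mismatch siRNA. Its level was thus lower in each PSENEN siRNA library (change -1.58, limma adjusted p = 0.0471), but the call was lost when any 1 library was left out, with adjusted p from 0.110 to 0.155. Exons of 4 annotated genes overlap those of PSENEN, among them U2AF1L4 on the other strand over 332 bases and AD000671.1 on the same strand over 285 bases. Reads there could belong to either gene, and for AD000671.1 strand could not tell them apart. Aligned sequence, estimated from coverage and FPKM, came to 9.16 to 11.9 gigabases in PSENEN siRNA libraries and 11.5 to 15.6 gigabases in mismatch siRNA libraries (exact two-sided permutation p = 0.2, where 3 against 3 libraries allow no p under 0.1). Reference transcripts per library did not overlap between groups, at 66581 to 70095 against 71115 to 74608, and the mitochondrial share of TPM was 2.79% to 3.59% against 2.87% to 2.99%. All 8 keratinocyte markers were above 1 TPM in at least 3 libraries. Of 23 markers of fibroblasts, leukocytes, endothelium and melanocytes, 3 were (COL1A1, CD14 and CD68), and PTPRC, CD3E, PDGFRA and SOX10 were among those listed in no library. In such bulk RNA, fewer cells that express a gene and less RNA per cell cannot be told apart. Whether the libraries came from separate cultures is not given, so p-values measure the spread between these libraries.

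None of the 10 genes changed past the test. All 10 had enough signal to be tested (at least 1 TPM in at least 3 libraries), and 0 passed an adjusted p of 0.05 in limma, where 64 of 15647 genes did (0.409%; 20 higher and 44 lower). With FPKM, the 56 genes that passed were 23 higher and 33 lower, and with median-of-ratios scaling the 49 were 21 higher and 28 lower. With quantile normalization the 47 were 19 higher and 28 lower. Without any 1 library between 7 and 16 genes passed. The split turned without a mismatch siRNA library, to 7 higher and 3 lower without library 1, 9 and 4 without library 2, and 7 and 2 without library 3. At an unadjusted p under 0.05, 2 of the 10 were lower (IER2 and IER3), beside 8.49% of all genes, and 0 were higher, beside 4.49%. In 3 of the 10 the groups lay apart, all lower with the PSENEN siRNA (FOS, EGR1 and IER3), beside 13.7% of all genes. The change was below 0 for 8 of the 10, beside 54.6% of all genes, and their median change was -0.30, beside -0.04 over all genes tested. The 8 keratinocyte markers had a median change of -0.22, with 7 of 8 negative, 0 that passed and 3 lower at an unadjusted p under 0.05 (KRT5, TP63 and DSG3). The part of this in the values of the 10 genes was not tested. At this depth and spread, the 95% intervals, on the TPM + 1 scale, lay within 2-fold either way for 6 genes, FOSL1, JUNB, JUND, IER2, IER3 and MYC, and were wider for FOS, FOSL2, JUN and EGR1.

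**Figure D1:**
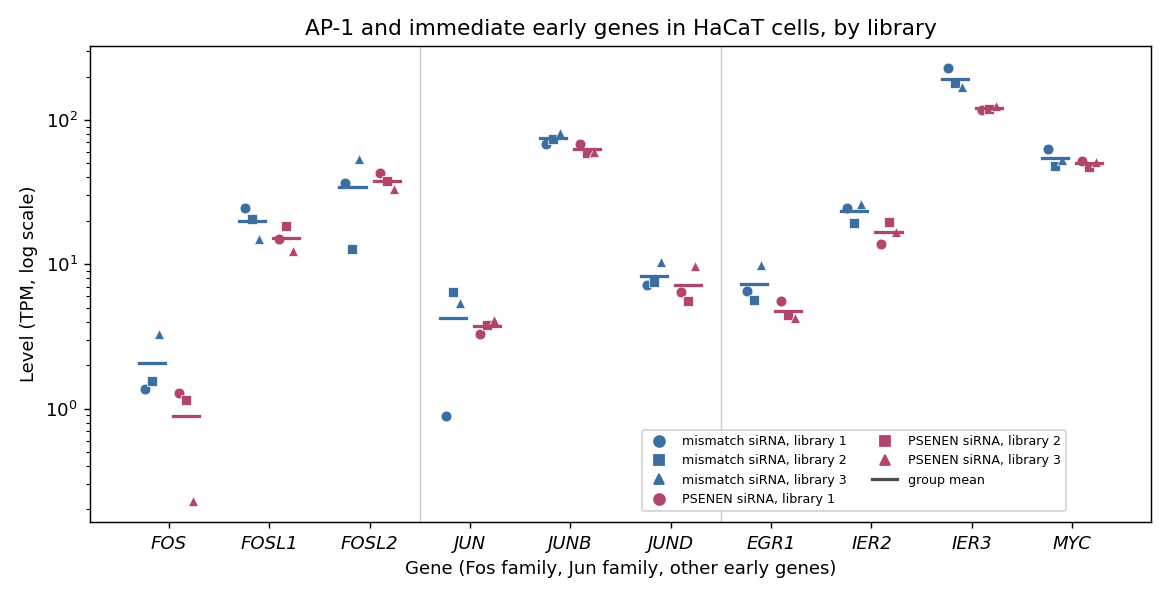
Level of each gene in TPM (log axis) in every library, with mismatch siRNA in blue and PSENEN siRNA in red; symbols mark libraries 1 to 3 of each group and bars the group means. IER3 is the highest in both groups, FOS the lowest, and 1 low library each stands apart for FOS, FOSL2 and JUN.

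The Fos family was made up mainly of FOSL2 and FOSL1, with little FOS. FOSL2 (ENSG00000075426, GRCh38 chromosome 2, 28392448 to 28417312, plus strand), which encodes FRA-2, was at 42.6, 37.6 and 33.3 TPM with the PSENEN siRNA and at 36.4, 12.8 and 53.6 TPM with the mismatch siRNA. The PSENEN siRNA libraries lay within the range of the mismatch siRNA libraries, which spread 4.19-fold. The change was 0.35 (95% interval -0.85 to 1.54, limma adjusted p = 0.795). Its sign rested on mismatch siRNA library 2, since without it the change was -0.22 (adjusted p = 0.719). Without mismatch siRNA library 3 it was 0.77.

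That low value had a counterpart among the transcripts without a reference name. In mismatch siRNA library 2, an assembled transcript from 28392858 to 28428831, which starts within FOSL2 and runs past its end, took 15.2 TPM, and a shorter one took 3.49 TPM. In PSENEN siRNA library 3, 1 such transcript took 3.71 TPM, and the other 4 libraries had none that shares an intron with FOSL2. When assembled transcripts that share an intron were counted, mismatch siRNA library 2 went from 12.8 to 31.4 TPM and the change became -0.016 (adjusted p = 0.980). The value of FOSL2 thus depended on which transcripts were counted.

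FOSL1 (ENSG00000175592, chromosome 11, 65892049 to 65900573, minus strand), which encodes FRA-1, was at 15.0, 18.4 and 12.4 TPM with the PSENEN siRNA and at 24.5, 20.7 and 14.9 TPM with the mismatch siRNA. The groups overlapped through mismatch siRNA library 3, which was below 2 of the 3 PSENEN siRNA libraries. The change was -0.36 (95% interval -0.91 to 0.19, adjusted p = 0.550 in limma). It was -0.21 without mismatch siRNA library 1, -0.23 without PSENEN siRNA library 3 and -0.55 without mismatch siRNA library 3. Transcript ENST00000312562 (4 exons) carried most of the signal, at 12.1 ± 1.87 against 16.5 ± 5.51 TPM (SD, n = 3). A transcript with 3 exons, ENST00000531493, took 6.76 TPM in PSENEN siRNA library 2 but 0.0685 and 0.1199 TPM in libraries 1 and 3 of that group, and 2.01 to 3.26 TPM in mismatch siRNA libraries.

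FOS (ENSG00000170345, chromosome 14, 75278774 to 75282230, plus strand), the classical partner of JUN, was near the level needed for testing. It was at 1.29, 1.14 and 0.231 TPM with the PSENEN siRNA and at 1.36, 1.55 and 3.31 TPM with the mismatch siRNA. The groups did not overlap, but the gap between the closest libraries, 1.29 and 1.36 TPM, was smaller than the spread within either group. The change was -0.70 (95% interval -1.56 to 0.15, adjusted p = 0.458), -0.42 without PSENEN siRNA library 3 and -0.43 without mismatch siRNA library 3. The full-length transcript ENST00000303562 was at 0.193, 0.751 and 0 TPM against 0.838, 1.03 and 2.11 TPM, where a listed 0 can be a failed estimate. FOSB, the remaining Fos gene, did not reach 1 TPM in any library and was not tested.

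Summed over FOS, FOSL1 and FOSL2, Fos family RNA was at 58.9, 57.1 and 46.0 TPM with the PSENEN siRNA and at 62.2, 35.1 and 71.8 TPM with the mismatch siRNA. FOSL2 made up 70.2% ± 3.86 of that sum with the PSENEN siRNA and 56.5% ± 19.2 with the mismatch siRNA (SD, n = 3). FOSL1 made up 28.3% ± 3.56 and 39.7% ± 19.2, and FOS 1.56% ± 0.922 and 3.75% ± 1.35. The FOSL2 share was 58.5%, 36.4% and 74.6% in the 3 mismatch siRNA libraries. With assembled transcripts that share an intron the share in that group was 63.0% ± 7.87.

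JUNB made up most of the Jun family. JUNB (ENSG00000171223, chromosome 19, 12791496 to 12793315, plus strand, 1 exon), which in keratinocytes is known to restrain JUN and to limit inflammation, was at 67.8, 59.3 and 60.3 TPM in PSENEN siRNA libraries. It was at 67.6, 74.0 and 81.6 TPM in mismatch siRNA libraries. PSENEN siRNA library 1 and mismatch siRNA library 1 were alike and the other libraries lay on either side of them. The change was -0.25 (95% interval -0.52 to 0.02, limma adjusted p = 0.419), the narrowest interval of the 10. Exons of HOOK2 on the other strand overlap 259 of its bases, and since the use of strand in the assembly is not given, reads there could belong to either.

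JUND (ENSG00000130522, chromosome 19, 18279760 to 18281622, minus strand, 1 exon), the Jun gene that is usually expressed at a steady level, was at 6.40, 5.54 and 9.69 TPM with the PSENEN siRNA and at 7.17, 7.53 and 10.3 TPM with the mismatch siRNA. In both groups library 3 was the highest. The change was -0.20 (95% interval -0.78 to 0.38, adjusted p = 0.752 in limma). It was -0.056 without PSENEN siRNA library 2 or without mismatch siRNA library 3, and -0.41 without PSENEN siRNA library 3. JUN (ENSG00000177606, chromosome 1, 58780788 to 58784327, minus strand, 1 exon) was at 3.27, 3.81 and 4.09 TPM with the PSENEN siRNA and at 0.886, 6.40 and 5.41 TPM with the mismatch siRNA.

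The 3 PSENEN siRNA libraries thus lay between mismatch siRNA library 1 and the other two. No unnamed transcript with exons in JUN was assembled in any library, so the low value has no such counterpart. The change of JUN was 0.07 (95% interval -1.20 to 1.35, limma adjusted p = 0.963), and its sign rested on that library, with -0.55 without it (adjusted p = 0.354). Without each other library it ranged from 0.019 to 0.44. With a pseudocount of 5 the change of JUN was -0.026 and with array weights -0.11.

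Summed Jun family RNA was at 77.5, 68.7 and 74.1 TPM with the PSENEN siRNA and at 75.7, 87.9 and 97.4 TPM with the mismatch siRNA. JUNB made up 85.1% ± 3.26 and 85.8% ± 3.10 of it (SD, n = 3), and these means differed by less than the SD. JUND made up 9.80% ± 2.84 and 9.55% ± 1.03, and JUN 5.10% ± 0.760 and 4.67% ± 3.15.

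**Figure D2:**
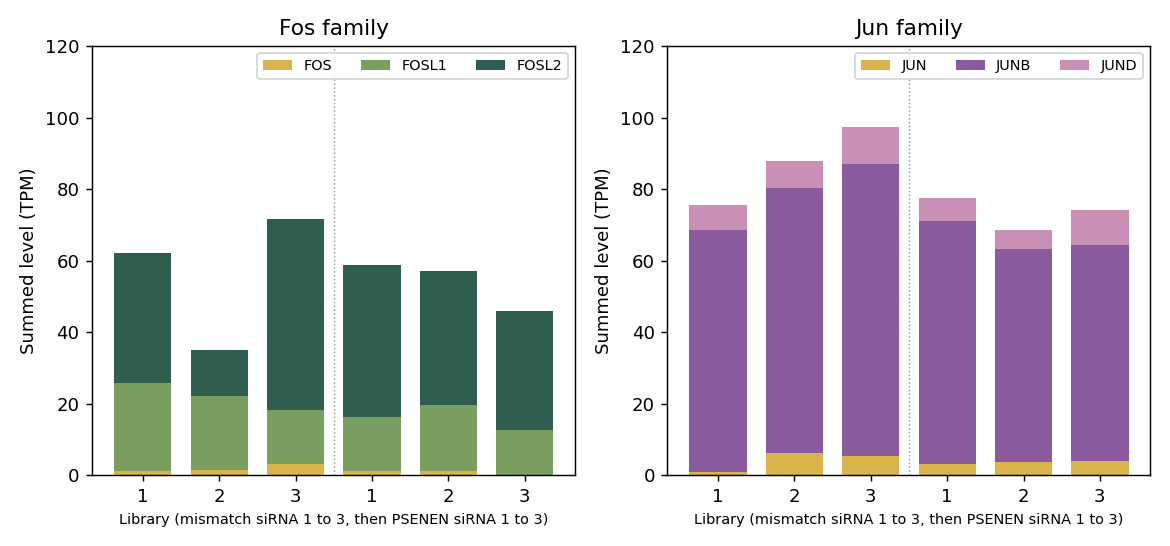
Summed TPM of the Fos family (left) and the Jun family (right) in each library, stacked by gene, with mismatch siRNA libraries 1 to 3 left of the dotted line and PSENEN siRNA libraries 1 to 3 right of it. JUNB makes up most of each Jun bar, at 85.8% and 85.1% on average, and the short Fos bar is mismatch siRNA library 2, where FOSL2 is at 12.8 TPM.

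Among the other early genes, IER3 had the smallest p of the 10. IER3 (ENSG00000137331, chromosome 6, 30743199 to 30744554, minus strand), also known as IEX-1, is a stress and growth factor response gene that acts on cell survival and on ERK signalling. It was at 118, 120 and 125 TPM with the PSENEN siRNA and at 231, 181 and 168 TPM with the mismatch siRNA. The groups lay apart, and the PSENEN siRNA libraries were close together. The level with the PSENEN siRNA was 62.6% of that with the mismatch siRNA, with a change of -0.66 (95% interval -0.98 to -0.33, unadjusted p = 0.00242, adjusted p = 0.123 over all genes in limma). It stayed negative in each of 19 alternative analyses, from -0.75 to -0.53, and passed in none of them (adjusted p 0.0972 to 0.377). The filters, the transcripts counted, the variance trend and the replicate block left the change of IER3 at the same -0.66, so its sign could not turn there. Because the groups lay apart, another pseudocount, array weights or leaving out a library could not turn the sign either.

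Both annotated IER3 transcripts were at lower values with the PSENEN siRNA. The spliced transcript ENST00000259874 (2 exons) was at 81.4, 85.1 and 96.8 TPM with the PSENEN siRNA and at 156, 117 and 115 TPM with the mismatch siRNA. ENST00000376377, which keeps the intron in 1 exon, was at 36.8, 34.5 and 28.4 TPM against 74.3, 64.4 and 52.8 TPM. It made up 31.1%, 28.8% and 22.7% of IER3 with the PSENEN siRNA and 32.2%, 35.5% and 31.5% with the mismatch siRNA (exact two-sided permutation p = 0.1 for each of the 3 measures, the smallest possible). The groups did not overlap in any of these 3 measures, though for the share the closest libraries differed by less than the spread within groups.

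An unnamed single-exon transcript on the opposite strand was assembled over the 3′ end of IER3 in each of the 6 libraries, from 30742731 to 30743593 in PSENEN siRNA library 1 and with like ends in the others. It was at 2.32, 2.86 and 3.17 TPM with the PSENEN siRNA and at 5.43, 5.11 and 4.65 TPM with the mismatch siRNA (exact two-sided permutation p = 0.1). It thus lay apart between groups in the same direction as IER3, at 2.30 ± 0.299 and 2.65 ± 0.254 TPM per 100 TPM of IER3 (SD, n = 3; exact permutation p = 0.3). The annotation has an antisense gene, IER3-AS1, whose exons overlap those of IER3 over 359 bases. Whether these reads come from an antisense RNA or from IER3 itself was not tested.

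**Figure D3:**
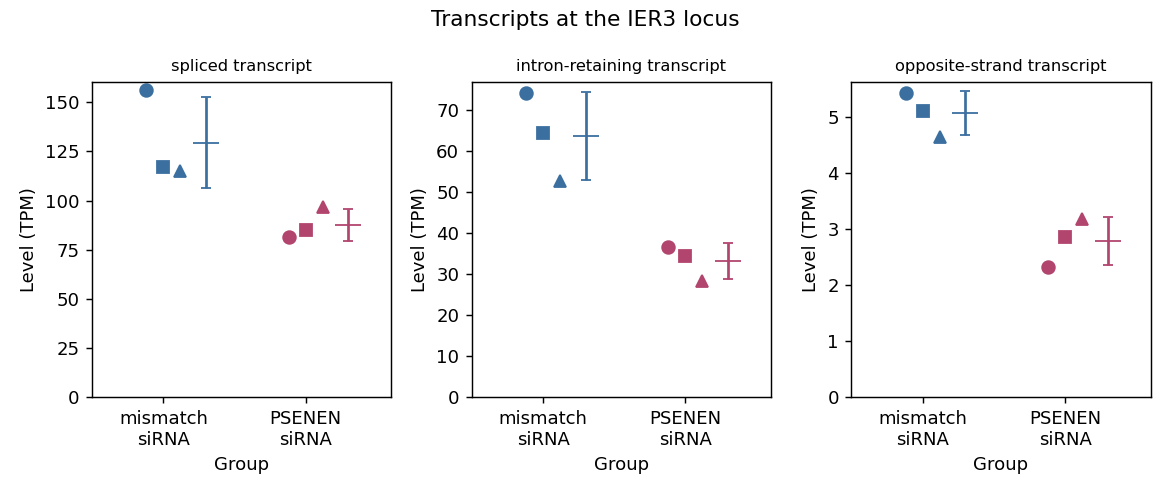
TPM of the spliced IER3 transcript, the intron-retaining IER3 transcript and the unnamed opposite-strand transcript, with mismatch siRNA in blue and PSENEN siRNA in red (circle, square and triangle for libraries 1 to 3; mean and SD at the side). In each panel the 3 PSENEN siRNA libraries lie below the 3 mismatch siRNA libraries, at 81.4 to 96.8 against 115 to 156 TPM for the spliced form.

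EGR1 (ENSG00000120738, chromosome 5, 138465490 to 138469315, plus strand), a zinc finger factor induced through serum response factor, was at 5.54, 4.48 and 4.23 TPM with the PSENEN siRNA and at 6.58, 5.67 and 9.83 TPM with the mismatch siRNA. The groups did not overlap, though the closest libraries, at 5.54 and 5.67 TPM, almost met. The change was -0.52 (95% interval -1.06 to 0.03, adjusted p = 0.401 in limma), and -0.31 without mismatch siRNA library 3. IER2 (ENSG00000160888, chromosome 19, 13150415 to 13154908, plus strand), a nuclear protein gene induced by serum, was at 13.8, 19.7 and 16.6 TPM with the PSENEN siRNA and at 24.5, 19.4 and 26.1 TPM with the mismatch siRNA.

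The IER2 groups overlapped narrowly, through PSENEN siRNA library 2 and mismatch siRNA library 2. Its change was -0.46 (95% interval -0.90 to -0.03, unadjusted p = 0.0403, limma adjusted p = 0.360). An antisense gene, AC011446.2, overlaps 946 bases of its exons, so its reads could be shared with that gene. Most IER2 signal was given to the single-exon transcript ENST00000588173, at 16.3 ± 3.07 against 21.3 ± 5.70 TPM (SD, n = 3).

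MYC (ENSG00000136997, chromosome 8, 127735434 to 127741434, plus strand) was the steadiest of the 10, with a 1.34-fold spread over all 6 libraries. It was at 52.2, 46.9 and 51.1 TPM with the PSENEN siRNA and at 62.7, 47.8 and 52.5 TPM with the mismatch siRNA. The groups overlapped, with mismatch siRNA library 1 the highest. The change was -0.11 (95% interval -0.42 to 0.20, adjusted p = 0.753 in limma), and -0.0013 without that library. It was -0.063 without PSENEN siRNA library 2 and -0.19 without mismatch siRNA library 2. Unnamed transcripts that share an intron with MYC, left out of these levels, took 7.01 and 17.0 TPM in PSENEN siRNA libraries 2 and 3. They took 7.25, 6.61 and 5.74 TPM in the mismatch siRNA libraries, and none was assembled in PSENEN siRNA library 1. With them the change was -0.068 (limma adjusted p = 0.872). The 6 reference transcripts of MYC traded places between libraries while their sum held: ENST00000524013 ranged from 0.00223 to 17.5 TPM within the mismatch siRNA group alone. Transcript levels within MYC are therefore given no comparison.

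**Figure D4:**
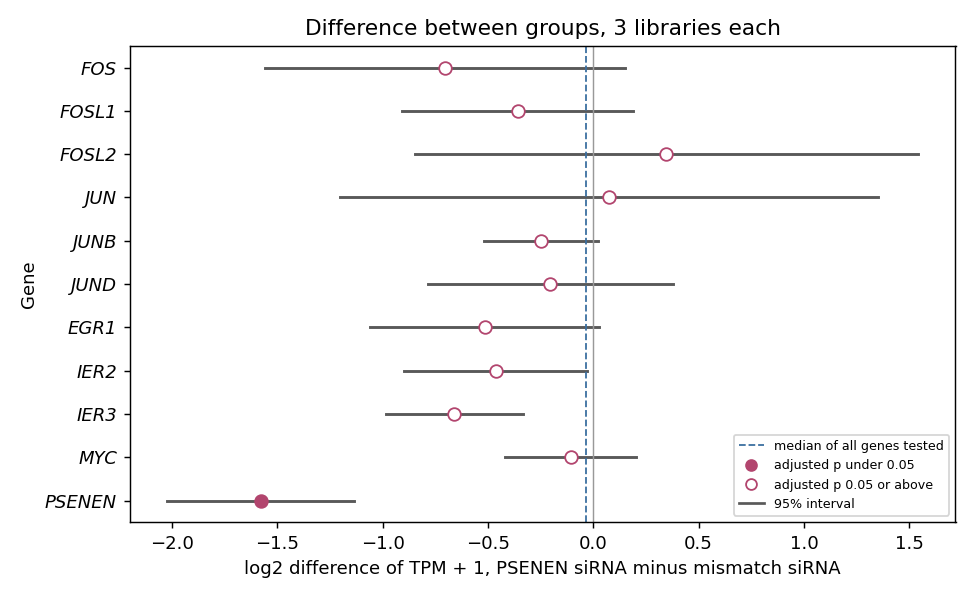
Change of each gene and of PSENEN on the log2(TPM + 1) scale with its 95% interval (3 libraries per group); filled points passed an adjusted p of 0.05 and the dashed line is the median over all genes tested (-0.04). PSENEN at -1.58 is the only filled point, and the intervals of IER2 and IER3 alone among the 10 lie below 0.

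By mean level over reference transcripts, the order was the same in both groups: IER3, JUNB, MYC, FOSL2, IER2, FOSL1, JUND, EGR1, JUN and FOS. With the PSENEN siRNA, the ranges over 3 libraries of neighbours in this order were apart except for IER2 and FOSL1. With the mismatch siRNA they overlapped between MYC and FOSL2, FOSL2 and IER2, IER2 and FOSL1, JUND and EGR1, EGR1 and JUN, and JUN and FOS. The places of these neighbours are thus not separated beyond their spread in that group. Unnamed transcripts were left out of this order. In PSENEN siRNA library 3, those that share an intron with MYC took 17.0 TPM beside its 51.1 TPM, with JUNB at 60.3 TPM. For FOSL1 they took 1.57 and 2.69 TPM in PSENEN siRNA libraries 2 and 3. Whether JUNB and MYC lay apart, and the order of IER2 and FOSL1, thus depended on which transcripts were counted. IER3, JUNB and MYC, at 193 ± 33.0, 74.4 ± 7.02 and 54.3 ± 7.65 TPM with the mismatch siRNA (SD, n = 3), stood well above the classical pair, with JUN at 4.23 ± 2.94 and FOS at 2.08 ± 1.08 TPM.

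**Figure D5:**
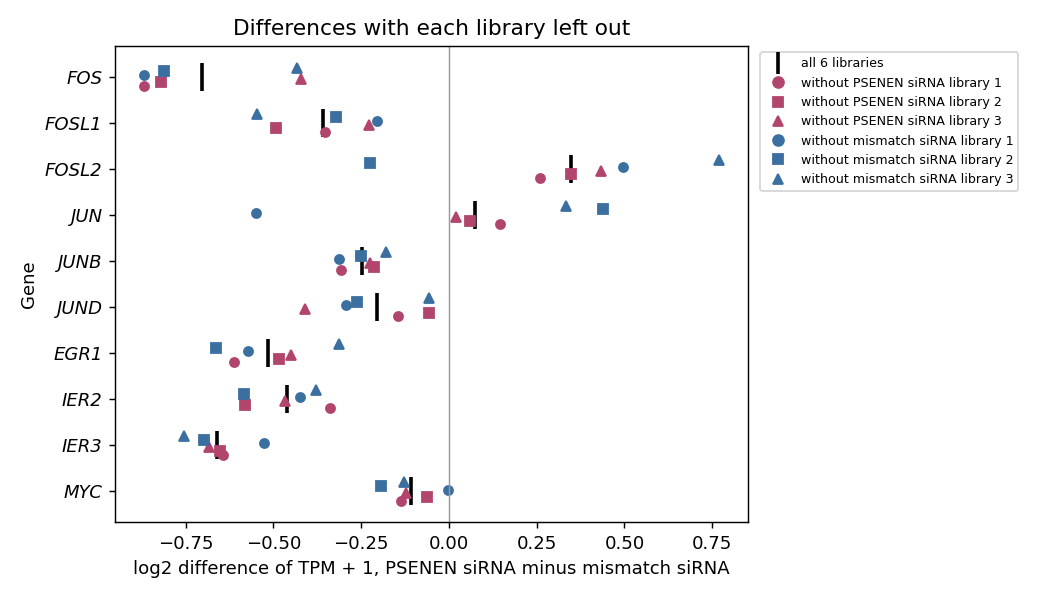
Change of each gene on the log2(TPM + 1) scale with all 6 libraries (black bars) and with each library left out (red symbols for PSENEN siRNA libraries, blue for mismatch siRNA libraries). FOSL2 and JUN cross 0, to -0.22 without mismatch siRNA library 2 and to -0.55 without mismatch siRNA library 1, and IER3 stays between -0.75 and -0.53.

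Genes around AP-1 and MYC were described from lists chosen by function, with earlier results of these data known. Counts from these lists, here and in the paragraphs on upstream genes, AP-1 targets and MYC, therefore support nothing on their own. Of 12 tested bZIP genes other than the Fos and Jun members, such as the ATF, MAF and NRF factors, 0 passed in limma (2 lower and 0 higher at an unadjusted p under 0.05, beside 8.49% and 4.49% of all genes), 10 had a negative change and the median was -0.28. The most abundant were ATF4, the factor of the integrated stress response, at 145 ± 2.66 against 179 ± 18.7 TPM (change -0.30, adjusted p = 0.310), and NFE2L2, which encodes NRF2, at 55.7 ± 1.33 against 62.3 ± 5.65 TPM (-0.15, adjusted p = 0.564). In both, the PSENEN siRNA libraries lay below the mismatch siRNA libraries, as they did for 4 of the 12 genes, beside 13.7% of all genes. Of 19 other early response genes, 0 passed (5 lower and 0 higher at an unadjusted p under 0.05, beside 8.49% and 4.49% of all genes), 14 were negative and the median was -0.15. The most abundant were ID1, an inhibitor of differentiation factors, at 573 ± 11.2 against 560 ± 77.3 TPM (0.04, adjusted p = 0.911), and the survival gene MCL1, at 100.1 ± 22.2 against 92.9 ± 31.5 TPM (0.14, adjusted p = 0.869). In 7 of these 19 genes the groups lay apart and lower with the PSENEN siRNA, beside 13.7% of all genes. In 1 they lay apart and higher, beside 1284 of 15647 genes. These lists stand beside a median of -0.04 over all genes, and no test of a list was made.

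Of 24 tested kinases and factors upstream of AP-1, 0 passed in limma (2 lower and 1 higher at an unadjusted p under 0.05, beside 8.49% and 4.49% of all genes), 19 were negative and the median was -0.19. MAP2K2, a kinase of ERK, was at 79.7 ± 16.8 against 87.3 ± 25.2 TPM (change -0.11, adjusted p = 0.867), and RPS6KA1, an ERK-activated kinase, at 42.6 ± 1.99 against 37.9 ± 10.2 TPM (0.20, adjusted p = 0.722). Genes with known AP-1 sites had 22 tested members, of which 16 were negative, with a median of -0.29. PLAU, the gene of the protease urokinase, was the 1 that passed and it was lower, beside 0.281% of all genes. It was at 53.4, 58.7 and 50.6 TPM with the PSENEN siRNA and at 129, 132 and 116 TPM with the mismatch siRNA, with the groups far apart (change -1.20, adjusted p = 0.0221). At an unadjusted p under 0.05, 8 of the 22 were lower and 2 higher, beside 8.49% and 4.49% of all genes. KRT6A, a keratin of activated keratinocytes whose reads can be shared with its close copies KRT6B and KRT6C, was at 385 ± 18.1 against 639 ± 119 TPM (-0.71, adjusted p = 0.136).

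Genes of the MYC network, a list of MAX and related factors that are not all partners of MYC itself, did not pass. Of 14 tested, 0 passed in limma (3 lower and 0 higher at an unadjusted p under 0.05, beside 8.49% and 4.49% of all genes), 7 were negative and the median was -0.02. MAX was at 27.4, 14.3 and 24.0 TPM with the PSENEN siRNA and at 34.4, 37.2 and 31.8 TPM with the mismatch siRNA, without overlap (change -0.68, adjusted p = 0.326), and MLX was at 34.5 ± 2.05 against 40.4 ± 5.49 TPM (-0.21, adjusted p = 0.532). Of 20 genes known to bind MYC at their promoters, 1 passed and was higher (beside 0.128% of all genes), 11 were positive and the median was 0.03. That gene was SRM, which encodes spermidine synthase, at 53.6, 55.4 and 59.1 TPM with the PSENEN siRNA and at 32.3, 25.4 and 26.3 TPM with the mismatch siRNA (0.98, adjusted p = 0.0471). NPM1, the gene of nucleophosmin, was at 266 ± 66.5 against 332 ± 94.3 TPM (-0.32, adjusted p = 0.669).

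IER3, the most abundant of the 10, was compared with 8292 protein-coding genes of at least 5 TPM by the Pearson correlation of log2(TPM + 1) over the 6 libraries. The closest patterns were those of CHML (r = 0.995), BRI3BP (0.994) and SETSIP (0.993), a near copy of SET whose reads can be shared with it. A correlation above 0.95 was reached by 146 genes, over 6 points that fall into 2 groups of libraries. BRI3BP was at 16.7 ± 1.13 against 26.6 ± 3.88 TPM, and its change of -0.63 did not pass either (adjusted p = 0.142 in limma).

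The 7-base word TGGTTCT, which occurs 1 time in each of the 3 PSENEN transcripts of GENCODE 29, was picked with earlier results of these data known, so counts of it support nothing on their own. Of the 44 genes that passed and were lower, 34 are protein-coding with an annotated 3′ UTR, and 17 of these held it there. Of the 20 that passed and were higher, 9 have such a 3′ UTR and 1 held it. Over all 10576 tested protein-coding genes with a 3′ UTR, 13.6% did. These sets were not matched for 3′ UTR length, on which the occurrence of a word depends. Of the 10 genes here, EGR1 and JUNB held it, printed with the word in capitals because they are the members that hold it, and IER3, with the smallest p, did not. The siRNA sequence was not used here, and its part in the values of EGR1 and JUNB was not tested.
EGR1, chr5:138469160-138469184, plus strand: attattttgTGGTTCTattttactt
JUNB, chr19:12793293-12793315, plus strand: aaaaaaaatTGGTTCTttattaa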

How the data were processed

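Each file the authors deposited is a StringTie assembly of 1 library, per the file headers and source column, with TPM, FPKM and coverage for each transcript as text attributes (other than a numeric column). No source used here gives the StringTie version or the use of strand. The submitters' processing notes name Bowtie 0.12.2 with mm8 and mm9, which are mouse builds, while 98.4% of the reference transcripts found in GENCODE 29 had its GRCh38 position. TPM was summed over reference transcripts per gene and tested with limma 3.58.1 (R 4.3.3, intensity trend, group as only term, 4 residual degrees of freedom) on log2(TPM + 1) for the 15647 genes that reached 1 TPM in 3 or more libraries, with Benjamini-Hochberg adjustment over all of them. Single values were compared by exact permutation. The steps were tested on simulated data.

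The genes and lists were chosen with earlier results of these data known. The rule for named genes takes the 10 members and PSENEN, from each list up to 4 genes that passed or else the most abundant until 2 are named, and the 3 genes closest to the most abundant member. The files hold no read counts, and depth was estimated as coverage over FPKM. Unnamed assembled transcripts entered only the alternatives named below. Alternatives covered the pseudocount, filter, scaling, transcripts counted, variance model, a replicate block and each library left out.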

Additional observations from a re-analysis of the deposited data

How the results depend on the processing

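In 19 alternative analyses, 0 of the tested members passed the test in limma, and IER3, EGR1, IER2, JUNB, JUND, FOSL1 and MYC kept a negative change in all 19; FOS did in the 17 that tested it (not with FPKM or a minimum of 5 TPM). The filters, the variance trend and the replicate block cannot move a change, so a sign kept there adds no support. For IER3, EGR1 and FOS, whose groups lay apart, the same holds for the sign with another pseudocount, array weights or a library left out. FOSL2 turned negative with assembled transcripts that share an intron (-0.016) and without mismatch siRNA library 2 (-0.22), and ranged to 0.77 with another library left out. JUN turned negative with a pseudocount of 5 (-0.026), with array weights (-0.11) and without mismatch siRNA library 1 (-0.55), ranged to 0.44 with another left out, and was not tested with a minimum of 5 TPM. Over all genes, 64 passed, against 28 with a pseudocount of 0.1, 1 with the replicate block and 7 to 16 with 1 library left out. PSENEN passed in 8 of 19; it did not with a pseudocount of 0.1 (-1.98), no filter (-1.58), a minimum of 5 TPM (-1.58), assembled transcripts inside exons (-1.73), the replicate block (-1.58, adjusted p = 0.306) or any library left out (-1.66 to -1.45). The causes were not tested. Whether the numbers pair the libraries is not given. Deviations of same-numbered libraries from their group means correlated at -0.0489, 6.5e-05 and -0.0142, and no PSENEN siRNA library correlated best with its own number. These values show no shared effect of the number, but they cannot tell whether libraries were paired by culture or day. With 3 libraries a group, the intervals limit what could be seen for FOS, FOSL2, JUN and EGR1.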
